A study of Arabidopsis thaliana with 12 samples.

Results

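UDP-glycosyltransferases (UGTs) are enzymes that move a sugar, most often glucose, from a UDP-sugar to a small molecule. In Arabidopsis thaliana they conjugate plant hormones such as abscisic acid (ABA), auxin, cytokinin and salicylic acid, as well as flavonoids, lignin precursors, glucosinolate precursors and foreign compounds, and the sugar usually makes the acceptor inactive, more soluble or ready for storage. The number in a UGT name is called its subfamily here, and the letter after it marks a closer group. All 46 genes described here were chosen by name. They are those with a probe set that the array's annotation pairs with 1 gene and whose symbol is UGT followed by a number, out of 13356 genes with such a probe set and 22810 probe sets in all. A further UGT probe set was left out by the rule and was not used here. RefSeq's table of the TAIR10.1 assembly gives 58 protein-coding genes a UGT symbol, and all 46 genes matched a locus and a symbol in it. The 46 genes lie in 11 subfamilies, each has a single probe set, and 24 of them sit in 10 runs in which the next protein-coding gene is another of the 46.

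The arrays compared whole seedlings of hai1-2, a mutant in the Col-0 background, with wild-type Col-0. HAI1 (At5g59220), the gene mutated, encodes a type 2C protein phosphatase of ABA signalling, and a single mutant allele was studied. Seedlings 7 days old, grown on vertical agar without sugar under continuous light, were moved either to plates infused with polyethylene glycol at a water potential of -1.2 MPa (stress), which withdraws water as drying soil does, or to fresh plates at -0.25 MPa (control), and were collected 96 h later. The 4 groups were hai1-2 at -1.2 MPa, hai1-2 at -0.25 MPa, Col-0 at -1.2 MPa and Col-0 at -0.25 MPa, with 3 one-colour Affymetrix arrays each. Every group was sampled once in each of 3 independent experiments, and arrays 1, 2 and 3 of a group come from experiments 1, 2 and 3. The annotation pairs no probe set with HAI1, so the genotype labels were not checked against a probe set named for it. An unnamed probe set, 247723_at, had signals of 373, 256 and 349 in stressed hai1-2 against 2603, 3125 and 3174 in stressed Col-0, and 111, 110.1 and 97.1 in control hai1-2 against 130.2, 164 and 94.5 in control Col-0. It may measure HAI1, but no table used here pairs it with a gene, and it was picked after its values were seen.

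Median signal lay between 195 and 212 over the 12 arrays. Shoot and root markers were present on every array, and both moved with the treatment. All 8 photosystem and light-harvesting genes fell in both genotypes, with summed signals of 55190 to 62037 in stressed hai1-2 against 105106 to 131150 in control hai1-2, and of 59857 to 67354.5 in stressed Col-0 against 96873 to 116391 in control Col-0. The 3 root markers were the root hair expansin genes EXPA7 and EXPA18 and the beta-glucosidase gene PYK10. All 3 rose in hai1-2, while in Col-0 the 2 expansin genes rose and PYK10 did not pass (0.18). Their summed signals, almost wholly those of PYK10, were 20978 to 23209.6 in stressed hai1-2 against 14764 to 18259.9 in control hai1-2. In Col-0 the sums were 16036 to 23401 under stress against 16345 to 16954 on control plates. No defining marker was at 0. The sugar transporter gene SAG29, the only senescing-leaf marker of 3 listed that could be measured by name, had 5882 ± 1506 in stressed hai1-2 against 39.9 ± 9.33 in control hai1-2, and 4992 ± 1285 in stressed Col-0 against 21 ± 9.24 in control Col-0 (SD, n = 3). As a single gene, it does not show whether leaves were senescing. The ratio of 5′ to 3′ signal of GAPDH, a sign of RNA integrity, was 1.05 to 1.16 in stressed hai1-2 against 0.85 to 1.03 in control hai1-2, and 0.756 to 0.952 in stressed Col-0 against 0.983 to 1.02 in control Col-0, for 1 pair of probe sets. For a second pair of probe sets the ratio was 0.634 to 0.79 in stressed hai1-2 against 0.631 to 0.931 in control hai1-2. In Col-0 that ratio was 0.69 to 1.15 under stress against 0.438 to 0.916 on control plates, and 0.438 was the value of array 3. The part of these markers and of RNA integrity in the UGT results was not tested, and fewer cells of a type cannot be told apart from less RNA per cell in whole seedlings.

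Signals below are MAS5 intensities on a linear scale, and those of a group are given in the order of its arrays 1, 2 and 3. MAS5 is Affymetrix's method for turning the probes of a set into 1 value. Changes are on the scale of log2(signal + 16) with the standard error (SE) of the limma fit and 3 arrays per group, always stress minus control or hai1-2 minus Col-0, and this scale understates the change of weak genes. A gene was called at an adjusted p under 0.05, adjusted by the Benjamini-Hochberg method over all 17059 probe sets tested. Signals of different probe sets cannot be set against each other, since each set binds with its own strength. Of the 46 genes, 34 passed the filter on low signal and were tested, and 12 did not. The filter works on the mean over all 12 arrays, so a gene that is weak on control plates can pass it through its stressed arrays. UGT76E12 and UGT73C7, which count among the rises in both genotypes, passed in that way. Both were also called with no filter.

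More UGT genes rose than fell after 96 h at low water potential, in both genotypes. In hai1-2, 16 of the 34 tested rose and 5 fell, while 19.9% of all probe sets tested rose and 17.8% fell. In Col-0, 13 rose and 4 fell, against 18.1% and 16.1% of all probe sets tested. The counts of falls rest on few arrays: 2 fell in hai1-2 with array 3 of stressed hai1-2 or 1 of control hai1-2 dropped, and 2 fell in Col-0 with array 1 or 3 of stressed Col-0 or 3 of control Col-0 dropped. The median change of the 34 was 0.54 in hai1-2 and 0.51 in Col-0, and that of all probe sets tested 0.073 and 0.065. Rises of at least 2-fold made up 11 of the calls in hai1-2, as they did for 7.42% of all probe sets tested, and 9 in Col-0, where the share was 7.23%. A fall of that size occurred once in each genotype, in UGT85A4, and 8.42% and 7.37% of all probe sets tested were called with a fall as large. Stress and control arrays did not overlap for 22 genes in hai1-2 and 23 in Col-0, against 52% and 44.7% of all probe sets tested.

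The 2 responses compare different arrays, but each experiment gave arrays to both. The fit over all 12 arrays also gave them the same estimate of the spread, so the 2 sets of calls are not independent. Of the genes that rose, 12 did so in both genotypes, 75% of those in hai1-2 and 92.3% of those in Col-0. UGT71C2, UGT72B3, UGT76B1 and UGT80B1 passed in hai1-2 alone and UGT71C1 in Col-0 alone. All 4 genes that fell in Col-0 also fell in hai1-2, 80% of the 5 there, and the fifth was UGT74B1. None of these differences between the responses passed the test of the difference itself, as given below. How many of all probe sets were called in both genotypes was not counted. The shares above are therefore not known to be particular to UGT genes. With no filter on low signal, which tests all 46 genes, 14 rose and 5 fell in hai1-2, against 14.3% and 13.1% of 22746 probe sets, and 16 rose and 3 fell in Col-0, against 12.9% and 11.8%.

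**Figure D1:**
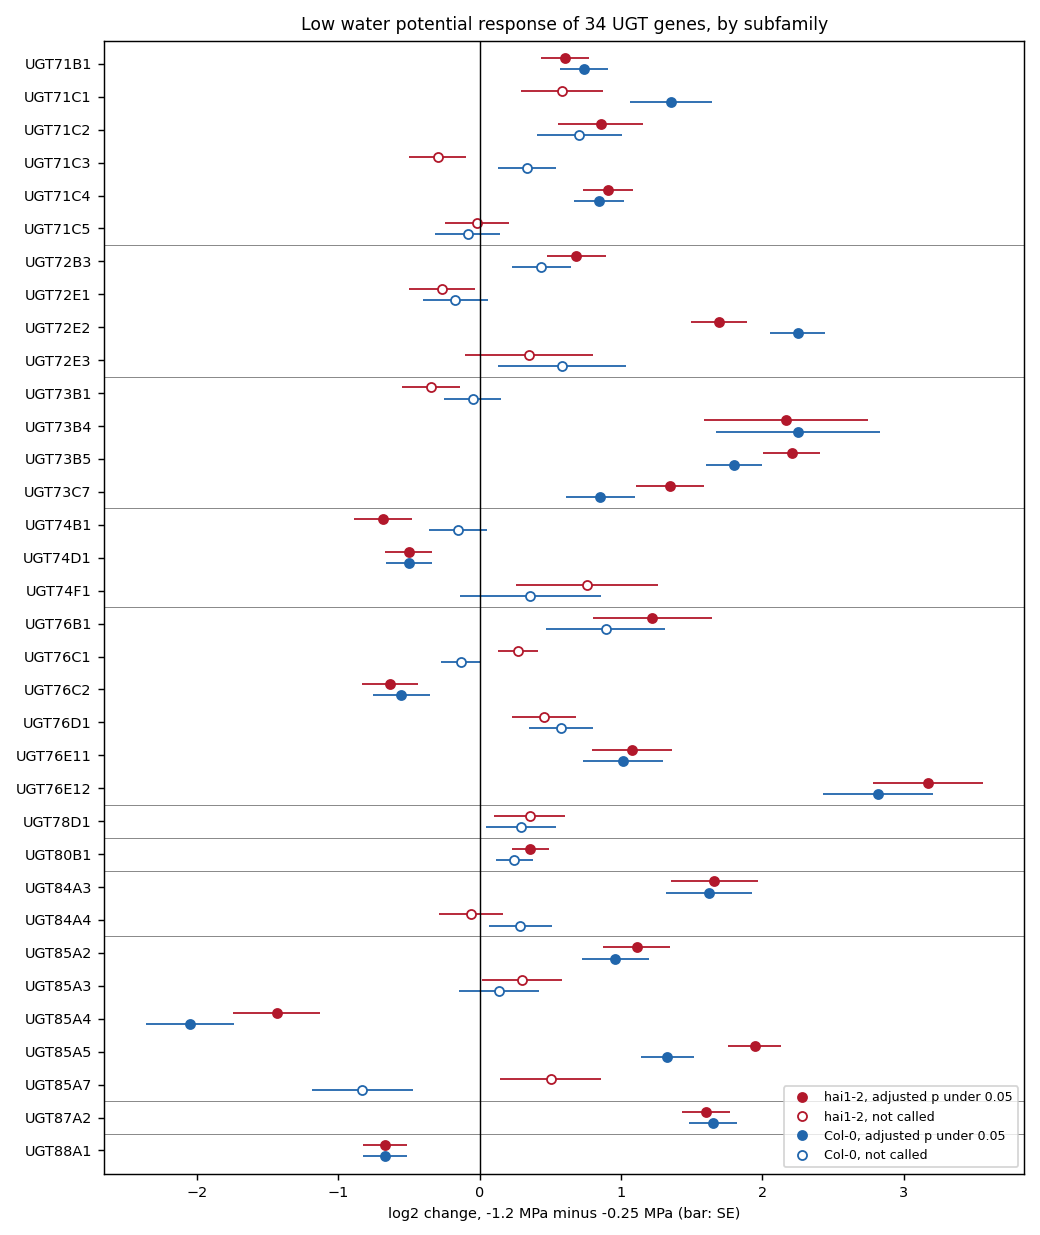
Change of each of the 34 tested UGT genes at low water potential, on the log2 scale of signal + 16, in hai1-2 (red) and Col-0 (blue), with genes down the page by subfamily. Points are fitted changes, bars are SE, and filled points passed an adjusted p of 0.05. UGT76E12 stands farthest to the right at 3.17 in hai1-2 and 2.82 in Col-0, and UGT85A4 farthest to the left at -1.44 and -2.05.

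The subfamily 71 genes include glucosyltransferases of ABA, whose glucose ester is an inactive store of the hormone. UGT71C4 (AT1G07250, probe set 256033_at) had signals of 1424, 1271 and 1468 in stressed hai1-2 against 741, 658 and 804 in control hai1-2. In Col-0 its signals were 1222, 1338 and 945 under stress against 517, 801 and 625 on control plates. Every stressed array lay above every control array of its genotype, and the gene rose by 0.91 ± 0.18 in hai1-2 and 0.84 ± 0.18 in Col-0 (adjusted p = 0.00117 and 0.00223). UGT71B1 also rose in both, by 0.61 in hai1-2 and 0.74 in Col-0, although the call in hai1-2 ended with array 2 of control hai1-2 dropped (0.46). UGT71C1 stood at 0.58 ± 0.29 in hai1-2 without passing and rose by 1.35 ± 0.29 in Col-0 (adjusted p = 0.132 and 0.00262). Its neighbour UGT71C2 rose by 0.86 ± 0.30 in hai1-2 (adjusted p = 0.0379) and stood at 0.70 in Col-0. That call ended without the filter on low signal (0.86) and with array 1 or 2 of stressed hai1-2, 1 or 3 of control hai1-2 or 3 of stressed Col-0 dropped (0.60 to 0.90).

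UGT71C5 (AT1G07240, probe set 256058_at), an ABA glucosyltransferase, had signals of 421, 424 and 548 in stressed hai1-2 against 319, 528 and 600.5 in control hai1-2, and 449.9, 545 and 712 in stressed Col-0 against 514, 671 and 606 in control Col-0. The groups overlapped in both genotypes, and its changes of -0.017 ± 0.23 in hai1-2 and -0.083 ± 0.23 in Col-0 did not pass. UGT71C3 did not pass either, at -0.30 in hai1-2 and 0.34 in Col-0. These genes, UGT71C5, UGT71C4 and UGT71C3, follow each other in the genome, and UGT71C4 was the 1 gene of that run called. UGT71B6, another ABA glucosyltransferase, was too weak to be tested, with signals of 41.2, 52.1 and 56 in stressed hai1-2 against 24, 11.1 and 33.7 in control hai1-2. Its signals were 37.7, 43.6 and 70.8 in stressed Col-0 against 4.8, 18.3 and 11.5 in control Col-0. Stressed arrays were the higher ones in each experiment of both genotypes. With no filter it stood at 0.79 ± 0.29 in hai1-2 (adjusted p = 0.0551) and at 1.27 ± 0.29 in Col-0 (adjusted p = 0.00508), that setting being the only one in which it was tested. UGT71B5 and UGT71B8, also untested, fell below a signal of 16 on 3 and 8 of the 12 arrays.

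Subfamily 72 holds enzymes that add glucose to monolignols, the alcohols from which lignin is built. UGT72E2 (AT5G66690, probe set 247059_at), one of these, had signals of 2468, 1489 and 1600.4 in stressed hai1-2 against 525, 564 and 554 in control hai1-2. Its signals were 2639, 2477 and 2048 in stressed Col-0 against 560.1, 529 and 388 in control Col-0. The groups lay far apart in both genotypes, and the gene rose by 1.69 ± 0.20 in hai1-2 (adjusted p = 1.5e-05) and by 2.25 ± 0.20 in Col-0 (adjusted p = 1.3e-06), the smallest adjusted p of any UGT gene in Col-0. The genes of the other two enzymes of this kind were not called. UGT72E1 (AT3G50740, probe set 252183_at) had signals of 675, 715 and 735 in stressed hai1-2 against 714, 853 and 1022 in control hai1-2, and 792, 1168 and 1009.7 in stressed Col-0 against 798, 1019 and 1648 in control Col-0. It stood at -0.27 in hai1-2 and -0.17 in Col-0 without passing, and the highest signal was that of control Col-0 in experiment 3. UGT72E3 did not pass at 0.35 ± 0.45 in hai1-2 and 0.58 ± 0.45 in Col-0, with control signals of 28.2, 110.4 and 74 in hai1-2 and 13.4, 101 and 60.6 in Col-0. UGT72B3 rose by 0.68 ± 0.21 in hai1-2, not so with array 2 or 3 of stressed hai1-2 or 2 or 3 of control hai1-2 dropped (0.59 to 0.67), and stood at 0.44 ± 0.21 in Col-0, where it passed with array 1 of control Col-0 dropped (0.63).

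In subfamily 73, 3 of 4 tested genes rose in both genotypes. UGT73B5 (AT2G15480, probe set 265499_at), known for a role in resistance to bacterial infection, had signals of 525, 448 and 461 in stressed hai1-2 against 67.3, 107 and 102 in control hai1-2, and 330.5, 508 and 349 in stressed Col-0 against 93.8, 91.6 and 117 in control Col-0. No arrays overlapped, and the rise was 2.21 ± 0.20 in hai1-2 (adjusted p = 1.6e-06), the smallest adjusted p of any UGT gene there, and 1.80 ± 0.20 in Col-0 (adjusted p = 1.3e-05). The next gene along the genome, UGT73B4 (AT2G15490, probe set 265501_at), whose enzyme can glucosylate the explosive TNT, had signals of 242, 276 and 286 in stressed hai1-2 against 6.4, 56.3 and 139 in control hai1-2. Its signals were 204, 179.7 and 401 in stressed Col-0 against 10.1, 53.1 and 76.2 in control Col-0. The control arrays of experiment 1 were the lowest and those of experiment 3 the highest in both genotypes, and all lay below the stressed ones. UGT73B4 rose by 2.17 ± 0.58 in hai1-2 and 2.25 ± 0.58 in Col-0 (adjusted p = 0.00973 and 0.00843), with the widest SE of any UGT gene tested. With array 1 of control hai1-2 dropped the rise in hai1-2 was 1.42, still called.

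UGT73C7, whose enzyme glucosylates hydroxycinnamic acids such as p-coumaric acid, rose by 1.35 ± 0.24 in hai1-2, with signals of 102, 107 and 93.9 under stress against 35.1, 30.7 and 24.7 on control plates. In Col-0 it rose by 0.86 ± 0.24, with 79.8, 94.6 and 54.4 under stress against 41.7, 22.8 and 40.3 on control plates, but not with array 2 of stressed Col-0 or 2 of control Col-0 dropped (0.67 to 0.71). UGT73B1 did not pass, at -0.34 in hai1-2 and -0.048 in Col-0. UGT73C1 (AT2G36750, probe set 265197_at), which like UGT73B4 can act on TNT, was left out by the filter on low signal, which works on the mean over all arrays. Its signals were 100.1, 127 and 114 in stressed hai1-2 against 3.6, 4.5 and 1.3 in control hai1-2, and 77.2, 76.2 and 61.8 in stressed Col-0 against 26.7, 7.4 and 2.1 in control Col-0. The 6 stressed arrays all lay above the 6 control arrays. With no filter it rose by 2.76 ± 0.28 in hai1-2 and 1.74 ± 0.28 in Col-0 (limma, adjusted p = 9.4e-06 and 5.1e-04). Over the 7 settings in which it was tested, adjusted p lay between 3.1e-06 and 7.3e-05 in hai1-2 and between 3.2e-04 and 0.00275 in Col-0. Besides no filter and the constant of 64, these settings each left out a control array, which raised the gene's mean over the filter. No setting with a stressed array left out tested it, so the ranges do not show whether the calls depend on those arrays. UGT73C2 and UGT73D1, also untested, had no signal above 40.2 on any array.

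The genes called in subfamily 74 all fell. UGT74B1 (AT1G24100, probe set 264873_at) makes the desulfoglucosinolates from which glucosinolates, sulfur-rich defence compounds, are finished. Its signals were 987, 936 and 819.9 in stressed hai1-2 against 1625, 1351 and 1452 in control hai1-2, and 1346, 1602 and 1024 in stressed Col-0 against 1803, 1047 and 1612 in control Col-0. The hai1-2 groups did not overlap and the Col-0 groups did. UGT74B1 fell in hai1-2, at -0.68 ± 0.20 (adjusted p = 0.0177), though not with array 3 of stressed hai1-2 or 1 of control hai1-2 dropped (-0.61 each), and stood at -0.15 ± 0.20 in Col-0 (adjusted p = 0.604). The difference between these responses, -0.53 ± 0.29, did not pass (adjusted p = 0.99).

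UGT74D1 (AT2G31750, probe set 263473_at), an auxin glucosyltransferase, had signals of 489.6, 455 and 477 in stressed hai1-2 against 821, 588 and 644 in control hai1-2, and 472, 590.5 and 486 in stressed Col-0 against 699.6, 644 and 867 in control Col-0. Stressed arrays were lower than the control arrays of their genotype, and the gene fell in both genotypes, at -0.50 ± 0.16 in hai1-2 and -0.50 ± 0.16 in Col-0 (adjusted p = 0.0264 and 0.03). The call in hai1-2 ended with array 1, 2 or 3 of stressed hai1-2 or 1 of control hai1-2 dropped (-0.53 to -0.37), and that in Col-0 with array 1 or 3 of stressed Col-0 or 3 of control Col-0 dropped (-0.46 to -0.38). UGT74F1, which makes salicylic acid glucosides, did not pass at 0.76 ± 0.50 in hai1-2 and 0.36 ± 0.50 in Col-0. Its signal was below 16 on 3 arrays, and in hai1-2 it passed with array 2 of stressed hai1-2 dropped (1.31).

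Subfamily 76 held UGT76E12, the gene with the largest change of the 34 in both genotypes with 16 added. It was among the 34 only through its stressed arrays, since all its control arrays lay below the filter's cut. UGT76E12 (AT3G46660, probe set 252487_at) had signals of 145, 353 and 214 in stressed hai1-2 against 28.5, 3.4 and 5.7 in control hai1-2. In Col-0 its signals were 219, 194 and 179.6 under stress against 2.2, 19.3 and 27.1 on control plates. The stressed signals of both genotypes lay well above their control signals, 3 of which were below 16, so the size of the change depends on the constant added. It rose by 3.17 ± 0.39 in hai1-2 and 2.82 ± 0.39 in Col-0 with 16 added (adjusted p = 2.5e-05 and 8.2e-05), by 4.55 and 4.02 with 1 added, and by 1.93 and 1.72 with 64 added. With 64 added the largest rise in Col-0 was that of UGT72E2 (2.15), while UGT76E12 stayed first in hai1-2. UGT76E11, its neighbour in name, which acts on flavonoids, rose by 1.08 ± 0.28 in hai1-2, with 247, 253 and 324 under stress against 183, 102 and 93.1 on control plates, and by 1.02 ± 0.28 in Col-0, where the call ended with array 3 of stressed Col-0 or 2 of control Col-0 dropped (0.69 to 0.93).

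UGT76C1 and UGT76C2, adjacent genes for the enzymes that add glucose to a ring nitrogen of cytokinins, differed in that UGT76C2 was called and UGT76C1 was not, although the difference between the genes was not tested. UGT76C2 (AT5G05860, probe set 250753_at) had signals of 186, 188 and 163 in stressed hai1-2 against 317, 258 and 285 in control hai1-2, and 276, 271 and 211 in stressed Col-0 against 338, 295 and 529 in control Col-0. The stressed arrays lay below the control arrays of the same genotype. It fell in both genotypes, at -0.63 ± 0.20 in hai1-2 (adjusted p = 0.0229) and -0.55 ± 0.20 in Col-0 (adjusted p = 0.0462). In hai1-2 the call ended with array 3 of stressed hai1-2 or 1 or 3 of control hai1-2 dropped (-0.63 to -0.56). The call in Col-0 ended with the experiment as a block (-0.55), with no filter (-0.55), with no variance trend (-0.55), and with array 1, 2 or 3 of stressed hai1-2, 2 or 3 of control hai1-2, 1, 2 or 3 of stressed Col-0 or 3 of control Col-0 dropped (-0.62 to -0.31). UGT76C1 had signals of 348, 379 and 344 in stressed hai1-2 against 320.1, 278 and 281 in control hai1-2 and did not pass, at 0.27 ± 0.14 there and -0.13 ± 0.14 in Col-0.

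UGT76B1, whose enzyme glucosylates salicylic acid, isoleucic acid and N-hydroxypipecolic acid of plant immunity, rose by 1.22 ± 0.42 in hai1-2 (adjusted p = 0.0351), with signals of 352, 225 and 379.8 under stress against 48.6, 181 and 201 on control plates. In Col-0 it stood at 0.89 ± 0.42 (adjusted p = 0.12), with 249, 397 and 235 under stress against 88.5, 149 and 234 on control plates. Stress and control arrays did not overlap in either genotype. The call in hai1-2 ended with no filter (1.22) and with array 1 or 3 of stressed hai1-2 or 1 of control hai1-2 dropped (0.66 to 1.14), and the Col-0 change passed with array 1 of control hai1-2 dropped (0.89). UGT76D1, which acts on dihydroxybenzoic acids made from salicylic acid, stood at 0.46 ± 0.23 in hai1-2 and 0.58 ± 0.23 in Col-0. Neither passed, but the Col-0 change did with no variance trend (0.58) and with array 3 of stressed Col-0 or 3 of control Col-0 dropped (0.71 to 0.72). UGT76E1, whose enzyme glucosylates hydroxyjasmonate, had signals of 1.2 to 4.3 over the 12 arrays, and UGT76E2 of 6.1 to 71.7, with groups that overlapped, and neither was tested.

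Among the flavonoid enzymes of subfamily 78, the flavonol rhamnosyltransferase gene UGT78D1 did not pass, at 0.35 ± 0.25 in hai1-2 and 0.29 ± 0.25 in Col-0. Its signals were 411, 652 and 629 in stressed hai1-2 against 595, 296 and 448 in control hai1-2, and 646, 629 and 594 in stressed Col-0 against 635, 382 and 530.2 in control Col-0, with overlap in both. The flavonol arabinosyltransferase gene UGT78D3 was untested, with signals up to 22 and below 16 on 9 arrays. UGT80B1, a sterol glucosyltransferase gene, rose by 0.36 ± 0.13 in hai1-2 (adjusted p = 0.0458) and stood at 0.25 ± 0.13 in Col-0 (adjusted p = 0.173). Its signals were 427, 389.8 and 429 in stressed hai1-2 against 312, 344 and 304 in control hai1-2. The rise there was small, at 0.43, 0.17 and 0.47 in experiments 1, 2 and 3. That call ended with the experiment as a block, with no filter (both 0.36), with quantile normalization (0.301), with median centring (0.296), and with array 1, 2 or 3 of stressed hai1-2, 1, 2 or 3 of control hai1-2 or 1, 2 or 3 of stressed Col-0 dropped (0.33 to 0.41).

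Subfamily 84 makes glucose esters of hydroxycinnamic acids, such as sinapic acid (group A), and of auxin (group B). UGT84A3 (AT4G15490, probe set 245352_at) had signals of 469, 439 and 479.7 in stressed hai1-2 against 187, 90.1 and 145 in control hai1-2, and 408, 346 and 401 in stressed Col-0 against 192, 125 and 58.6 in control Col-0. No arrays overlapped, and it rose by 1.66 ± 0.31 in hai1-2 and 1.62 ± 0.31 in Col-0 (adjusted p = 7.8e-04 and 0.00107). The genes on either side of it were not called in both genotypes. UGT84A4 did not pass, at -0.06 in hai1-2 and 0.29 in Col-0. UGT84A1, untested, had signals of 23, 4.1 and 12.1 in stressed hai1-2 against 7.1, 5.6 and 36.7 in control hai1-2, and 56, 31 and 34.6 in stressed Col-0 against 5.5, 3.7 and 3.8 in control Col-0. The Col-0 groups lay apart and the hai1-2 groups overlapped. With no filter, the only setting in which it was tested, UGT84A1 stood at -0.085 ± 0.34 in hai1-2 (adjusted p = 0.891) and 1.45 ± 0.34 in Col-0 (adjusted p = 0.00713), and the difference between these, -1.54 ± 0.49, did not pass (adjusted p = 0.985). UGT84B1, an auxin glucosyltransferase gene, and the adjacent UGT84B2 were untested, below 16 on 9 and 10 of the 12 arrays.

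Subfamily 85 held UGT85A4, the gene with the largest fall of the 34 tested, beside genes that rose. UGT85A5 (AT1G22370, probe set 255943_at), known for raising salt tolerance when expressed in tobacco, had signals of 1117, 1011 and 1092 in stressed hai1-2 against 215, 282 and 313 in control hai1-2. Its signals were 583, 716 and 777 in stressed Col-0 against 216, 245 and 346 in control Col-0. All stressed arrays stood above all control arrays, and those of hai1-2 above those of Col-0. The rise was 1.95 ± 0.19 in hai1-2 (adjusted p = 3.1e-06) and 1.33 ± 0.19 in Col-0 (adjusted p = 1.1e-04). UGT85A2, next to it, rose by 1.11 ± 0.24 in hai1-2, with 1572, 1163 and 1238 under stress against 439, 683 and 718 on control plates, and by 0.96 ± 0.24 in Col-0, with 1012, 1044 and 1039.6 under stress against 352, 699.8 and 578 on control plates. On the other side of UGT85A5 lies UGT85A3, which did not pass at 0.30 in hai1-2 and 0.14 in Col-0.

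UGT85A7, the fourth gene of that run, had signals of 63.5, 147 and 85.6 in stressed hai1-2 against 47.5, 60.8 and 78.3 in control hai1-2, and 14.5, 58.6 and 56.8 in stressed Col-0 against 92.6, 59.6 and 97 in control Col-0. In each experiment the stressed array was the higher one in hai1-2 and the lower one in Col-0. Neither change passed, at 0.50 ± 0.36 in hai1-2 (adjusted p = 0.289) and -0.83 ± 0.36 in Col-0 (adjusted p = 0.0899). With array 1 of stressed Col-0 dropped, whose signal was 14.5, the Col-0 change was -0.404. UGT85A4 (AT1G78270, probe set 260799_at), which lies elsewhere in the genome, had signals of 69.9, 89.2 and 116 in stressed hai1-2 against 166, 334 and 353 in control hai1-2, and 60.2, 69.5 and 71.2 in stressed Col-0 against 196, 432 and 407 in control Col-0. Stressed arrays were the lower ones throughout, and it fell in both, at -1.44 ± 0.31 in hai1-2 (adjusted p = 0.0024) and -2.05 ± 0.31 in Col-0 (adjusted p = 1.8e-04). The control arrays of experiment 1 were the lowest control arrays in both genotypes.

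**Figure D2:**
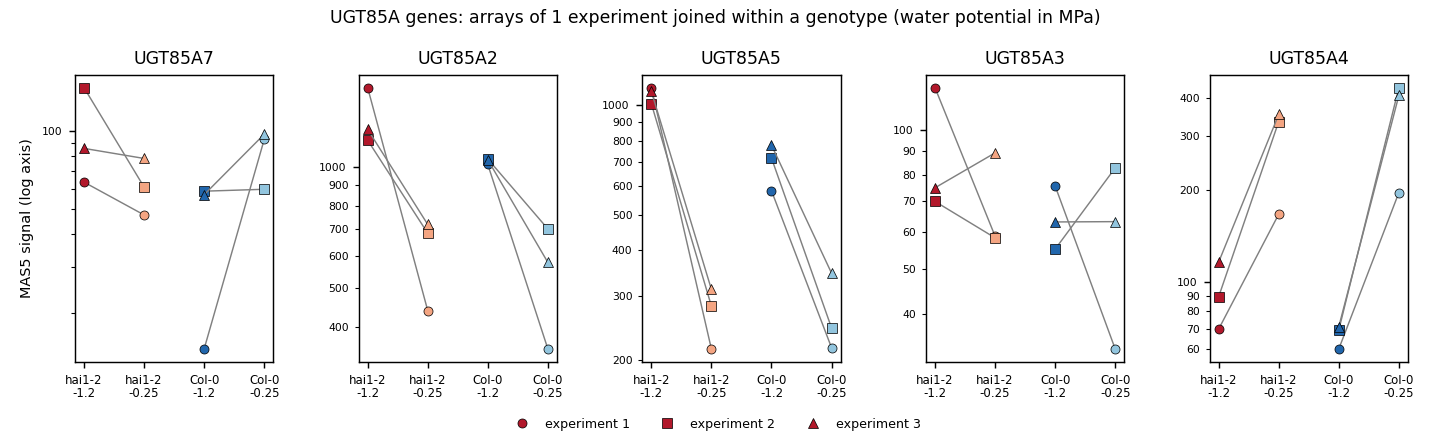
MAS5 signal (log axis) of the 5 UGT85A genes on each array, with the stressed and control arrays of an experiment joined within hai1-2 (red) and Col-0 (blue) and experiments shown by marker shape. The first 4 panels follow the order of the genes in the genome. UGT85A5 is higher on all stressed arrays, UGT85A4 is lower on all of them, and UGT85A7 goes up under stress in hai1-2 and down in Col-0 without passing the test.

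UGT87A2 and UGT88A1 are the single genes of their subfamilies here, and moved in opposite directions. UGT87A2 (AT2G30140, probe set 267300_at), known for an influence on flowering time, had signals of 1023, 897 and 1275 in stressed hai1-2 against 387, 345 and 286 in control hai1-2, and 922, 1018 and 1002 in stressed Col-0 against 299.6, 258 and 352 in control Col-0. The groups lay far apart, and it rose by 1.60 ± 0.17 in hai1-2 and 1.65 ± 0.17 in Col-0 (adjusted p = 6.7e-06 and 6.1e-06). UGT88A1 (AT3G16520, probe set 257205_at) had signals of 2369.7, 1662 and 2002 in stressed hai1-2 against 3531, 2796 and 3221 in control hai1-2, and 2498, 2138 and 1886 in stressed Col-0 against 3278, 3609.7 and 3433 in control Col-0. It was lower on every stressed array, and fell by 0.67 in hai1-2 and 0.67 in Col-0 (adjusted p = 0.00419 and 0.00463). Neither gene lost a call under any setting tried.

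**Figure D3:**
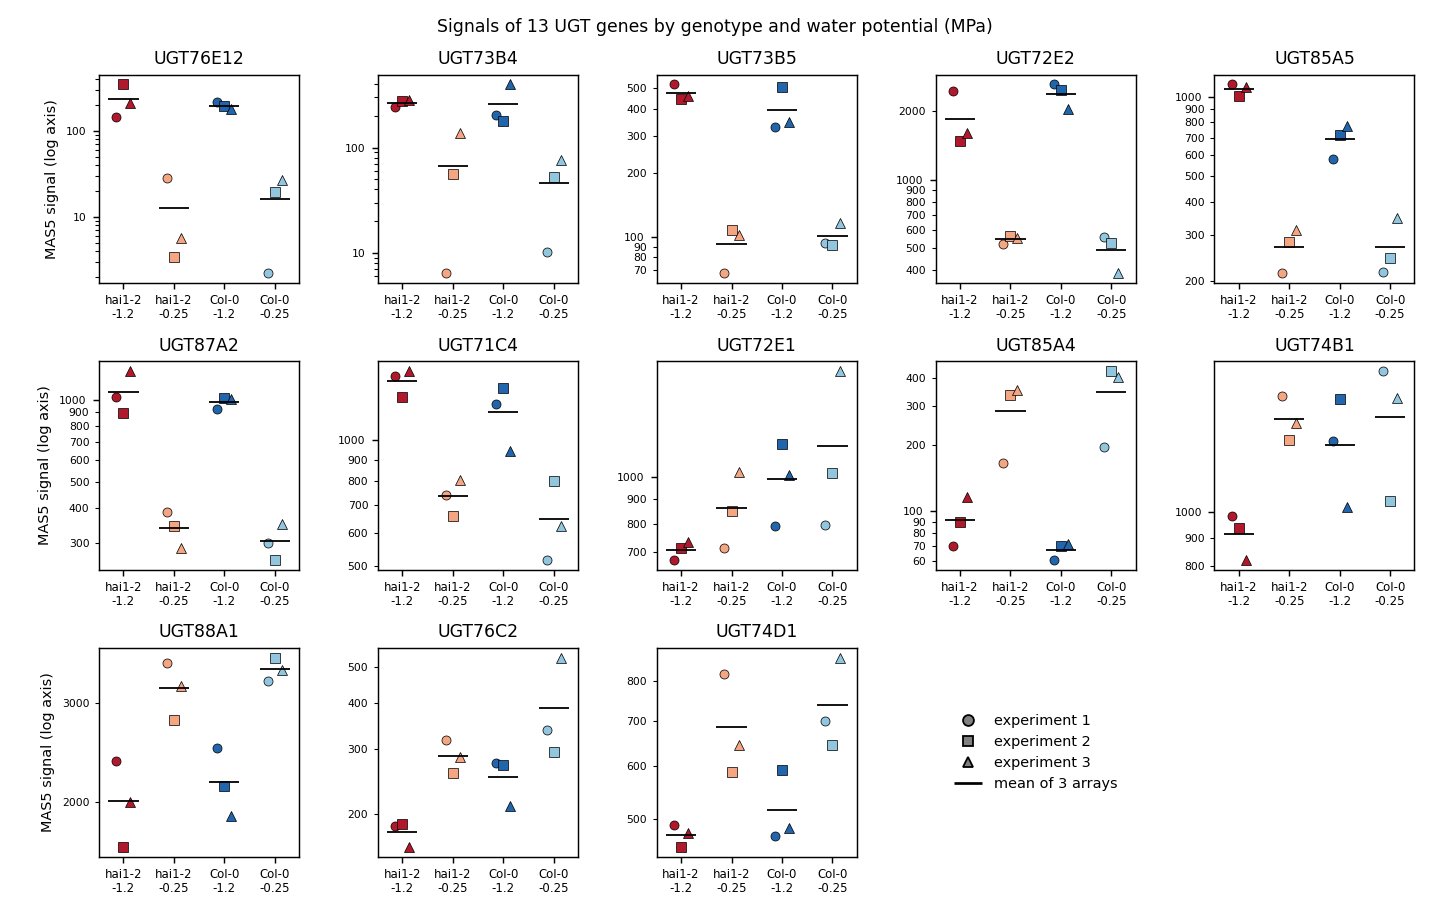
MAS5 signal (log axis) of 13 UGT genes on each of the 12 arrays, by genotype and water potential in MPa, with experiments shown by marker shape and bars at the mean of 3 arrays. In the first 7 panels, UGT76E12 to UGT71C4, all stressed arrays lie above the control arrays of their genotype, and in the panels of UGT85A4, UGT88A1, UGT76C2 and UGT74D1 all lie below them.

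Between the genotypes, no UGT gene passed. At -1.2 MPa limma called none of the 34 in hai1-2 against Col-0 (lowest adjusted p = 0.717), where 0.00586% of all probe sets tested, a single one, was called. An unadjusted p under 0.05 was reached by 4 of the 34, UGT85A5, UGT85A7, UGT74B1 and UGT76C2, against 5.59% of all probe sets tested. On control plates none was called either, with 0 of the 34 at an unadjusted p under 0.05, against 3.2% of all, and the test of the difference between the 2 responses called none, with UGT85A7, UGT85A5 and UGT71C3, 3 of the 34, at an unadjusted p under 0.05, against 4.29% of all. The arrays of stressed hai1-2 and stressed Col-0 did not overlap for 7 genes, against 14.1% of all probe sets tested, and those of control hai1-2 and control Col-0 for 1, against 6.41%.

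Of those 7 genes, 4 were higher in stressed hai1-2 and 3 of these belong to the UGT85A run. UGT85A5 differed by 0.63 ± 0.19, at 1073 ± 55.7 in stressed hai1-2 against 692 ± 99.5 in stressed Col-0 (SD, n = 3). UGT85A7 differed by 1.00 ± 0.36, at 98.6 ± 43 in stressed hai1-2 against 43.3 ± 25 in stressed Col-0 (adjusted p = 0.839), UGT85A2 by 0.34 and UGT84A3 by 0.26. Lower in stressed hai1-2 were UGT74B1 at -0.51 ± 0.20, with 914 ± 85.4 in stressed hai1-2 against 1324 ± 289.9 in stressed Col-0, UGT72E1 at -0.46 and UGT76C2 at -0.46. None of them passed after adjustment. On control plates UGT76C1 was the 1 gene whose groups did not overlap, at 320.1, 278 and 281 in hai1-2 against 338, 338 and 411 in Col-0 (-0.29 ± 0.14, adjusted p = 0.999). The GAPDH ratios of the first pair of probe sets given above did not overlap between stressed hai1-2 and stressed Col-0. For the second pair the ratio was 0.634 to 0.79 in stressed hai1-2 and 0.69 to 1.15 in stressed Col-0, with overlap.

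**Figure D4:**
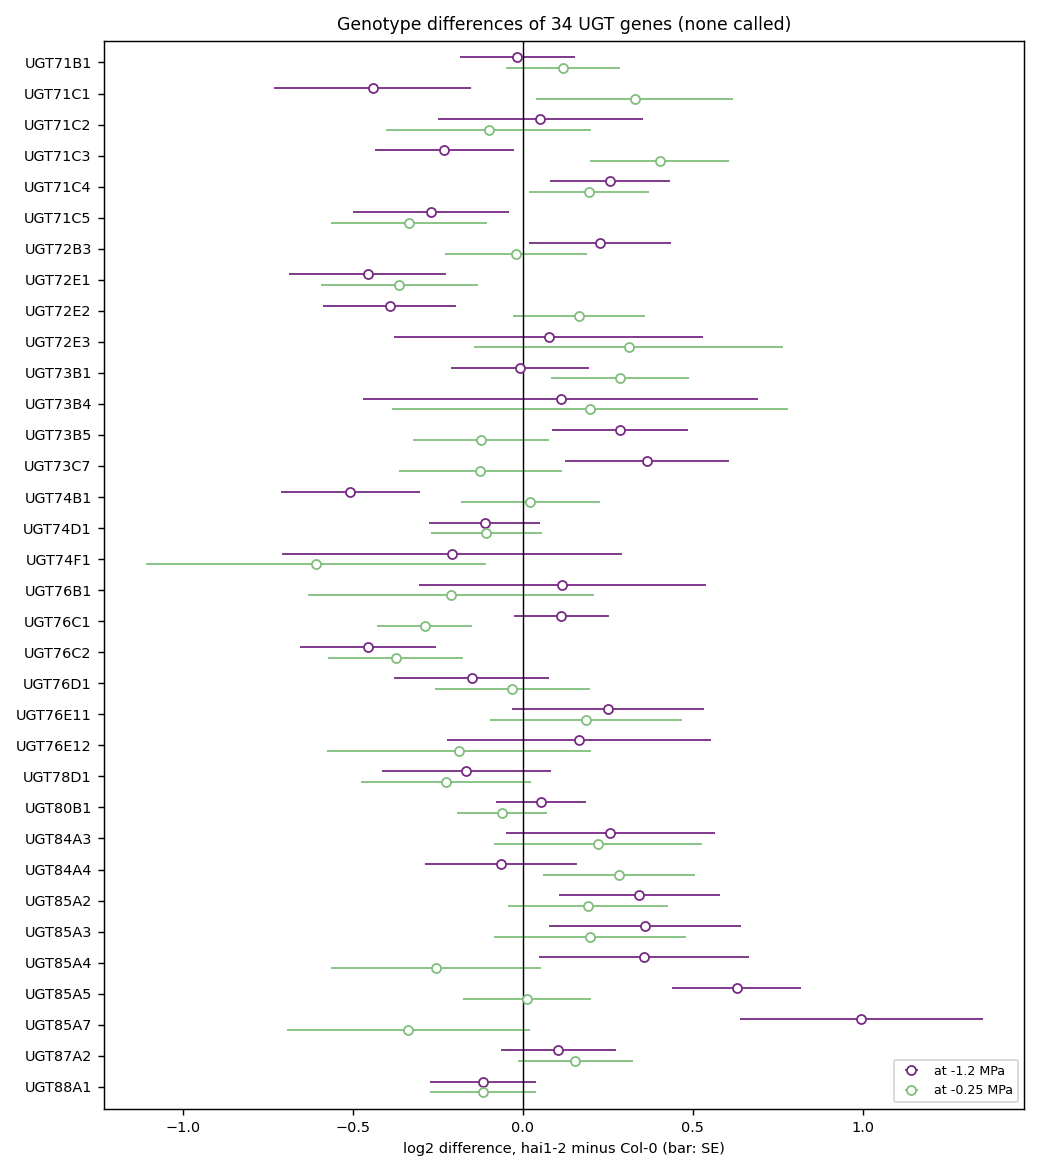
Difference between hai1-2 and Col-0 for each of the 34 tested UGT genes, on the log2 scale of signal + 16, at -1.2 MPa (purple) and at -0.25 MPa (green), with bars for SE. No point passed an adjusted p of 0.05, and UGT85A7 and UGT85A5 at -1.2 MPa stand farthest to the right, at 1.00 and 0.63.

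The spread between experiments was shared by the genotypes for some genes. On control plates, the array of experiment 1 was the lowest of the 3 in both genotypes for 11 of the 34 genes, against 18.8% of all probe sets tested. Experiment 2 was lowest in both for 5 genes, against 16.2% of all, and experiment 3 for 1, against 8.92%. Those lowest in experiment 1 were UGT73B4, UGT76B1, UGT85A2, UGT85A4, UGT85A5, UGT72E1, UGT72E3 and the 71C genes UGT71C1, UGT71C2, UGT71C3 and UGT71C5. The change of UGT73B4 in hai1-2 was 3.52 in experiment 1, 2.01 in experiment 2 and 0.96 in experiment 3, and for UGT85A4 in hai1-2 these changes were -1.09, -1.74 and -1.48.

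Genes of another conjugating family, of enzymes that release glucose from glucosides or make UDP-sugars, and of further UGTs are given for comparison. Of 12 glutathione transferase genes of the GSTU and GSTF groups, which conjugate foreign compounds with glutathione, 10 were tested. The counts of these lists stand beside the shares over all probe sets tested, 19.9% risen and 17.8% fallen in hai1-2 and 18.1% and 16.1% in Col-0. In hai1-2, 1 rose, GSTU16 at 0.77, and 4 fell, GSTU18 at -1.26, GSTU23 at -0.99, GSTU20 at -0.94 and GSTU27 at -0.86. In Col-0, 1 rose, GSTU28 at 1.33, and 2 fell, GSTU18 at -1.21 and GSTU27 at -0.82. Without passing, GSTU28 stood at 0.53 in hai1-2, and GSTU16 at 0.26, GSTU23 at -0.69 and GSTU20 at 0.12 in Col-0. The median change of the 10 was 0.36 in hai1-2 and 0.26 in Col-0, opposite in sign to most of the calls. Of 22 beta-glucosidase genes of the BGLU family, which release glucose from glucosides, 12 were tested, and 5 rose and 3 fell in hai1-2 and 3 rose and 3 fell in Col-0, with a median of 0.064 in hai1-2 and -0.026 in Col-0. BGLU45, which acts on monolignol glucosides such as UGT72E2 makes, rose by 1.67 ± 0.27 in hai1-2, with 313, 206 and 202 under stress against 44.4, 77.6 and 72.2 on control plates. In Col-0 it rose by 1.37 ± 0.27, with 202, 161 and 240.2 under stress against 45, 64.7 and 98.9 on control plates. A link between BGLU45 and UGT72E2 was not tested. BGLU46, the next in number, did not pass, at 0.65 in hai1-2 and 0.31 in Col-0. BGLU25 rose by 1.74 in hai1-2 and 1.65 in Col-0, and BGLU28 rose by 0.97 in hai1-2 and 0.92 in Col-0. BGLU47 and BGLU33 fell in both genotypes, BGLU47 at -1.02 in hai1-2 and -0.71 in Col-0, and BGLU33 at -0.66 in hai1-2 and -1.12 in Col-0.

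A gene for making UDP-sugars, USP, could be measured by name and did not pass, at -0.092 in hai1-2 and -0.33 in Col-0. Of 4 UGT genes that the array's annotation lists under another symbol, 3 were tested and 1 was called, the anthocyanin enzyme gene UF3GT (UGT79B1), which rose by 6.20 in hai1-2 and 5.48 in Col-0. This exceeded the change of each of the 46 genes. GT72B1 (UGT72B1), which can conjugate chlorinated phenols, stood at 0.38 in hai1-2 and 0.55 in Col-0, and the sterol glucosyltransferase gene SGT (UGT80A2) at -0.26 and 0.23, without passing. AT5G54010 (UGT79B6) was untested, with signals of 2.4 to 23.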

How the data were processed

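Total RNA of whole seedlings was hybridised to 12 one-colour Affymetrix arrays. The values deposited by the authors are MAS5 intensities on a linear scale, per the submitters' processing notes, with the software version and the scaling target not given in these sources. The trimmed mean of every array was 500, so no further scaling was applied. Genes were named from the platform annotation, with 13513 probe sets paired with 1 gene, 503 with several and 8794 with none, and gene order came from RefSeq's TAIR10.1 table. The 64 control probe sets and the 25% of probe sets with the lowest mean (below 5.67 as log2) were left out, which left 17059.

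Values were tested as log2(intensity + 16) with limma 3.58.1 in R 4.3.3, in 1 group-means fit over all 12 arrays (8 residual degrees of freedom) with moderated variances and a trend on the mean, two-sided. P-values were adjusted over all 17059 probe sets at 0.05. The script was tested on simulated data. The number of arrays limits the precision, with 3 per group.

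The replicate numbers pair the arrays, since the series' design text states 1 sample of each group per experiment. Deviations of same-numbered arrays of hai1-2 and Col-0 correlated at 0.227 to 0.263 under stress and 0.128 to 0.517 on control plates, those of stress and control arrays of 1 genotype at -0.023 to 0.093. Differently numbered arrays of hai1-2 and Col-0 gave -0.136 to -0.104 under stress and -0.422 to 0.164 on control plates. Stress and control arrays of 1 genotype with different numbers gave -0.153 to 0.117, so these values do not bear out the pairing of stress with control. Changes given per experiment rest on the design text for that pairing. Alternatives were a block for the experiment, constants of 1 and 64, no filter, the lowest 50% left out, quantile normalization, median centring, no variance trend, and leaving out each array.

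By rule, signals on every array are given for the 5 UGT genes with the largest rise and the 5 with the largest fall among those called in each response, any called between genotypes, and the 5 of highest mean, and up to 4 genes are named of each comparison list. Further genes shown by array were chosen after their values were seen. The UGT genes and the gene lists were chosen with earlier results of these data known. No sequences were used here.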

Additional observations from a re-analysis of the deposited data

Results flagged for a closer look

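The fitted responses of UGT85A7 to low water potential had opposite signs in the 2 genotypes, but neither passed. They were 0.50 in hai1-2 (limma, adjusted p = 0.289) and -0.83 in Col-0 (adjusted p = 0.0899). Its signal was higher under stress in all 3 experiments of hai1-2 and lower in all 3 of Col-0. Some of these differences were slight, such as 0.11 in experiment 3 of hai1-2 and -0.019 in experiment 2 of Col-0. The response of hai1-2 minus that of Col-0 was 1.33 (SE 0.50) on the log2 scale of signal + 16. The test of that difference did not pass (limma, adjusted p = 0.99). With array 1 of stressed Col-0 dropped the difference was 0.91, and over all alternatives it lay between 0.81 and 1.72. Signals were low, with 1 of 12 arrays below 16.

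Probe sets that the annotation pairs with several genes, a UGT among them, were outside the main comparisons, and 2 of the 3 rose. Probe set 253268_s_at rose by 0.91 in hai1-2, with 1469, 1270.4 and 1369.5 under stress against 393, 765 and 1228 on control plates, and by 1.26 in Col-0, with 1475, 1193 and 1436 under stress against 428, 616 and 667 on control plates. Probe set 260379_at rose by 0.85 in hai1-2, with 997, 1036 and 1151 under stress against 592, 579.6 and 572 on control plates, and by 0.44 in Col-0, with 823, 907 and 866 under stress against 650.3, 714 and 543 on control plates. The third, 266643_s_at, stood at 0.094 in hai1-2 and -0.34 in Col-0 without passing. Which of the paired genes gave these signals cannot be told apart.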

How the results depend on the processing

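Of the 38 UGT responses to low water potential that were called, 18 kept their call under every alternative, and 8 more under every alternative in which their gene was tested, which left out the filter at the lowest 50%. The other calls are given beside their genes in the report. With the lowest 50% left out, 20 UGT genes were tested in place of 34, and 14 were called in hai1-2 and 12 in Col-0. Over the other alternatives, with 34 to 46 tested, the number called was 15 to 22 in hai1-2 and 15 to 19 in Col-0. The share of all probe sets called was worked out for the main setting and for no filter alone. For the rest, these counts do not show how UGT genes stood against all probe sets. Of the 30 responses named that were not called, 17 stayed so with the same sign where tested, and no genotype difference was called under any alternative. With the experiment as a block, a replicate block, UGT80B1 in hai1-2 (0.36) and UGT76C2 in Col-0 (-0.55) lost their calls and no other call changed among these responses. Quantile normalization and median centring moved the median of all probe sets by less than 0.1.

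Signs turned only in responses that were not called, when 1 array was left out. Over the arrays left out in turn, the values in hai1-2 lay between -0.28 and 0.16 for UGT71C5, -0.075 and 0.68 for UGT72E3, and -0.22 and 0.14 for UGT84A4. In Col-0 they lay between -0.25 and 0.069 for UGT71C5, -0.40 and 0.11 for UGT72E1, -0.25 and 0.11 for UGT73B1, -0.38 and 0.019 for UGT74B1, -0.019 and 0.59 for UGT74F1, and -0.14 and 0.36 for UGT85A3. The cause was not tested.

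The choice of the weaker probe set for genes with several could not be tried, since each UGT gene has 1 single-gene probe set. Weak signals, below 16 on 3 or more arrays for UGT74F1 and UGT76E12, limit the precision of those changes.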
